A study of Macaca fascicularis with 64 samples.

Results

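Wild-type newborn muscle was set against 6 other tissues of the same monkeys: brain, thymus, liver, heart, lung and kidney. The series is RNA sequencing of cynomolgus monkeys (Macaca fascicularis), with newborn animals labelled wild type (WT) or SIRT6 mutant (SIRT6-/- in the series title, KO here) and 8 wild-type fetal libraries. The muscle samples are the 4 muscle libraries of the wild-type newborns WT2 and WT3, of 64 libraries in all. The 24 other libraries of these animals, 4 per tissue, are what muscle was compared with. Read from their titles, the libraries are 2 repeats of each tissue of each animal, and log2(FPKM + 1) was averaged within each repeat pair, so that n = 2 animals per tissue. FPKM counts fragments relative to transcript length and library size, so levels can be set side by side between genes. The 28 newborn KO libraries, from the animals KO2 and KO3 and the same 7 tissues, enter only at the end, since the choice of genes used none of their values. Whole tissue was homogenised in liquid nitrogen. The labels do not say which muscle was taken, the animals' sex or age in days, or whether repeats were separate pieces of tissue.

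Skeletal muscle is built of fused, multinucleate fibres packed with sarcomeres, in which myosin thick filaments pull on actin thin filaments. A nerve impulse reaches the fibre at the neuromuscular junction, a voltage sensor in the membrane opens the calcium release channel of the sarcoplasmic reticulum, and calcium binding to troponin starts contraction until calcium pumps clear it. Fast and slow fibres carry different isoforms of most of these proteins, and the heart uses a set of its own that partly overlaps with the slow one. ATP is held up by creatine phosphate, by glycogen breakdown and glycolysis, and by mitochondria.

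The markers fit the label. MYLPF, CKM, MYOD1 and MYF6 were high in all 4 muscle libraries and low or at 0 in brain, thymus, liver, lung and kidney. Muscle held 11.2 and 7.53 FPKM (WT2 and WT3) summed over 13 cardiomyocyte markers, against 7953 FPKM in heart, and at most 13.8 FPKM summed over the hepatocyte markers, against 91040.0 FPKM in liver. The 4 muscle libraries listed 11525 to 11590 genes at 1 FPKM or more. Their 10 highest genes took 18.5% to 20.1% of all FPKM, against 4.9% to 5.2% in brain, 7.19% to 7.92% in kidney, 11.6% to 13.2% in heart and 21.4% to 23.1% in liver. Repeat libraries correlated at 0.996 across genes in muscle, and the animals WT2 and WT3 at 0.976, figures that describe genes and not independent replicates.

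Muscle stood above every other tissue at 257 of 16463 genes tested, 1.56% of them. Such a gene had 6 positive differences, a joint limma p (the largest of the 6, Benjamini-Hochberg adjusted over all genes) under 0.05, and at least 1 log2 unit over the highest other tissue. All 4 muscle libraries lay above all 24 others at each of the 257, and at 572 genes (3.47%) of all those tested. The median distance to the next tissue was 2.6 log2 units. At 104 genes it was 3 or more and at 15 genes 7 or more. With each pair of tissues fitted by itself, which leaves less information on the spread, 39 of the 257 were called. The next tissue was heart for 110 genes, brain for 52, kidney for 37, lung for 29, thymus for 21 and liver for 8. In whole tissue, fewer cells of a type and less RNA per cell cannot be told apart.

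The largest differences belonged to fast-twitch contractile genes. MYLPF, the regulatory light chain of fast myosin, had 11259.6 and 11081 FPKM in WT2 muscle and 5585 and 5784 FPKM in WT3 muscle. The 24 other libraries held 0, 0.153 and 0.775 FPKM (lowest, median and highest), and all 4 heart libraries were listed at 0. Its distance to the highest other tissue was 12.46 log2 units (SE 0.32, joint adjusted p = 1.10e-09). TNNC2, the calcium-binding subunit of fast troponin, had 7936 and 7697 FPKM in WT2 muscle and 7565 and 7572 FPKM in WT3 muscle, against 0, 0.664 and 4.9 FPKM in the others, a distance of 11.12 log2 units (SE 0.35, joint adjusted p = 5.16e-09). For both genes the muscle libraries lay far from all others, with no overlap, as the choice of these genes required.

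Other parts of the fast fibre showed the same pattern. ATP2A1, the fast calcium pump of the sarcoplasmic reticulum, had 1623 and 1575 FPKM in WT2 muscle and 1466 and 1508 FPKM in WT3 muscle, and no other library passed 0.933 FPKM at a distance of 9.96 log2 units (SE 0.2, joint adjusted p = 3.54e-10). TNNI2 and TNNT3, the inhibitory and tropomyosin-binding subunits of fast troponin, averaged 4142 and 3476 FPKM in muscle. The next tissues were liver for TNNI2, with 16.4 FPKM, and heart for TNNT3, with 32 FPKM. MYL1, the essential light chain of fast myosin, had 11477 and 11472 FPKM in WT2 muscle and 5746 and 5723 FPKM in WT3 muscle, against 34.2, 38.5, 3.76 and 3.17 FPKM in the heart libraries. Muscle and heart did not overlap, as the choice of this gene required, and in both tissues the WT2 libraries were the higher ones.

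The myosin heavy chains divided the fast fibre further. MYH2, the chain of fast oxidative (IIa) fibres, had 842 and 814 FPKM in WT2 muscle and 623 and 612 FPKM in WT3 muscle, and MYH1, the chain of faster IIx fibres, had 1228 and 1220.3 FPKM in WT2 muscle and 561 and 580.0 FPKM in WT3 muscle. MYH4, known from rodents as the chain of the fastest IIb fibres, had 37 and 39.1 FPKM in WT2 muscle and 414 and 404 FPKM in WT3 muscle. The heart held at most 3.35 FPKM of MYH1 and 0.435 of MYH2. All 3 were called highest in muscle, with distances of 9.16 log2 units (SE 0.19, joint adjusted p = 3.54e-10), 7.84 log2 units (SE 0.3, joint adjusted p = 2.89e-08) and 6.82 log2 units (SE 0.74, joint adjusted p = 0.00026). WT3 muscle held far more MYH4 than WT2 muscle, and WT2 muscle more MYH1 and MYH2. The myosin heavy chains, the actins and the troponins are families of close copies, so reads shared between members could have been split by the authors' quantification.

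**Figure D1:**
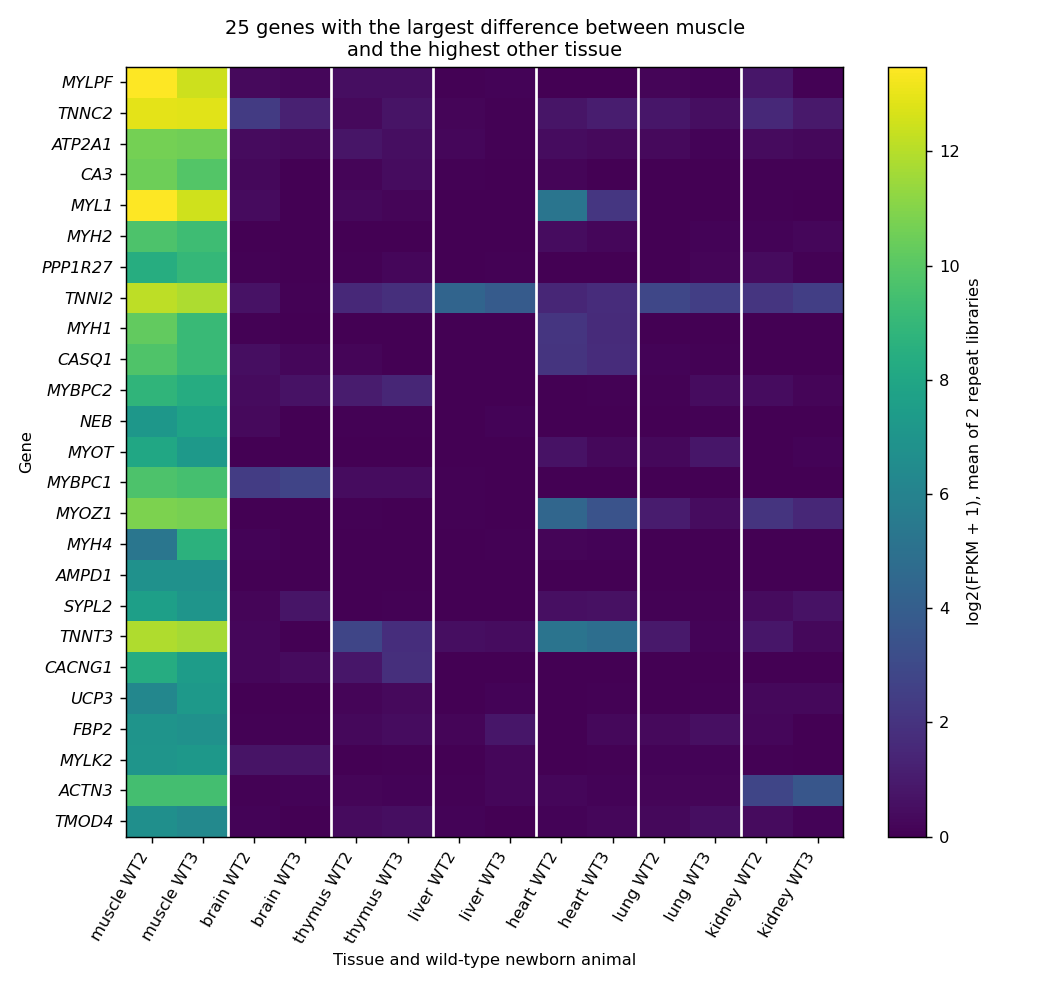
Level, as log2(FPKM + 1) averaged over the 2 repeat libraries of an animal, of the 25 named genes with the largest distance between muscle and the highest other tissue (rows) in each tissue of WT2 and WT3 (columns, muscle at the left). Muscle is bright in every row, heart shows faint levels of MYL1, MYOZ1 and TNNT3, and liver of TNNI2.

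Other genes among the 25 largest differences had various roles. CASQ1, the calcium store protein of fast fibres, had 888 and 890.5 FPKM in WT2 muscle and 553 and 558 FPKM in WT3 muscle, against at most 3.36 FPKM elsewhere. NEB, the giant protein that runs along the thin filament, had 136 and 140.5 FPKM in WT2 muscle and 225 and 224 FPKM in WT3 muscle, against at most 0.28 FPKM elsewhere. CA3, a cytosolic carbonic anhydrase abundant in muscle, had 1476 and 1428 FPKM in WT2 muscle and 911 and 939 FPKM in WT3 muscle, and no other library passed 0.384 FPKM. All 3 genes were abundant in both animals. AMPD1, the muscle AMP deaminase, had 111 and 110.0 FPKM in WT2 muscle and 112 and 111 FPKM in WT3 muscle and was listed at 0 in all 24 other libraries. UCP3, a mitochondrial carrier of the uncoupling protein family, had 73.9 and 76.1 FPKM in WT2 muscle and 154 and 151 FPKM in WT3 muscle, against at most 0.286 FPKM elsewhere, and FBP2, the muscle fructose bisphosphatase, had 123 and 124 FPKM in WT2 muscle and 115 and 111 FPKM in WT3 muscle, against at most 0.786. PPP1R27, a regulatory subunit of protein phosphatase 1, had 347 and 319.5 FPKM in WT2 muscle and 502 and 512 FPKM in WT3 muscle. In each of these the muscle libraries stood clear of all others, as the choice of the 25 required, and the animals differed by less than the muscle distance.

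Of the 222 called genes with a symbol, 92 belonged to one of 23 lists of muscle and cell functions, and 130 did not. Among 15 fast-fibre isoforms, 14 were called highest in muscle, against 1.56% of all genes. The exception, PVALB, a calcium buffer, had 380.4 and 393 FPKM in WT2 muscle and 77 and 74.8 FPKM in WT3 muscle and averaged 38.3 FPKM in brain and 27.3 FPKM in kidney (joint adjusted p = 0.36). Of 5 slow skeletal isoforms, 3 were called: TNNT1 (1585, 1481, 2372 and 2384 FPKM), the slow troponin T, MYBPC1 (845, 859, 728 and 737 FPKM), the slow myosin-binding protein C, and SLN (1654, 1638, 1733 and 1763 FPKM), sarcolipin, which restrains the calcium pump. TNNI1, slow troponin I, had 1787, 1779, 2394 and 2357 FPKM in muscle, against 535, 522, 640.3 and 650.4 in heart, and passed the test against each tissue singly (heart 1.82, SE 0.52, adjusted p = 0.047) but not the joint one (adjusted p = 0.26). Slow isoforms thus stood beside the fast ones in both animals' muscles.

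Among 30 genes of the sarcomere scaffold, thin filament and Z-disc, 12 were called highest, against 1.56% of all genes. All 30 were higher than in brain (background 12.9%), thymus (14.8%), liver (14.1%), lung (8.67%) and kidney (6.8%). Against heart, 14 of the 30 were higher and 2 lower, where 4.97% of all genes were higher and 5.07% lower. ACTA1, skeletal actin, was the highest of them, with 46892 and 45435 FPKM in WT2 muscle and 36938 and 36844 FPKM in WT3 muscle, against 835, 1032, 2188 and 2116 FPKM in heart (difference 4.87, SE 0.38, adjusted p = 6.41e-06). TPM2, beta-tropomyosin, had 2599, 2373, 1956 and 2005 FPKM, against 112, 102, 90.3 and 90.6 FPKM in heart (4.48, SE 0.25, adjusted p = 3.88e-07). TCAP, which caps titin at the Z-disc, differed less, with 727, 707, 865 and 906 against 562, 525, 295 and 286 FPKM (1.0, SE 0.28, adjusted p = 0.043), and TPM1, alpha-tropomyosin, stood at 2491, 2520.3, 2184 and 2096 against 2306, 2277, 1894 and 1931 FPKM, where the libraries of both tissues overlapped.

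Genes of excitation-contraction coupling were mostly highest in muscle, with 15 of 21 called (20 tested), against 1.56% of all genes. RYR1, the calcium release channel of skeletal muscle, had 122 and 119 FPKM in WT2 muscle and 189 and 185 FPKM in WT3 muscle, against at most 2.17 FPKM elsewhere. CACNG1, a subunit of its voltage sensor, averaged 248 FPKM, and STAC3, the adaptor that joins sensor and channel, 253 FPKM. TMEM38A, a potassium channel of the sarcoplasmic reticulum, had 257, 256, 357 and 355 FPKM, against 96.7, 89, 90.3 and 89.5 FPKM in heart (1.72, SE 0.3, adjusted p = 0.0036). TMEM38A lost the call of highest tissue without WT2 heart (joint adjusted p = 0.082), WT3 heart (0.10) or WT3 muscle (0.14). BIN1, which shapes the transverse tubules, had 367, 352, 405 and 397 FPKM, against 69.2, 66.2, 77.5 and 75.6 FPKM in brain, the next tissue. Against heart, 16 of the 20 genes tested were higher in muscle (background 4.97%) and none was lower (5.07%).

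At the neuromuscular junction 3 of 12 listed genes (10 tested) were called highest, against 1.56% of all genes. CHRNB1, the beta subunit of the acetylcholine receptor, had 51.9, 49.7, 51 and 52.2 FPKM, against at most 8.21 FPKM elsewhere, and RAPSN, which clusters the receptor, had 35, 34.2, 37.1 and 37.2 FPKM, against at most 2.59. CHRNA1, the alpha subunit, had 8.41, 8.07, 7.29 and 6.8 FPKM, against at most 2.85, and was the third gene called, though not without either muscle animal (joint adjusted p = 0.21 without WT2 muscle and 0.12 without WT3 muscle). Its call was also lost with a pseudocount of 0.1 (0.29), with no level filter (0.16) and without any single thymus, liver, heart or kidney animal (0.054 to 0.061). DOK7, an activator of the receptor kinase MUSK, had 16.9, 18.1, 36.5 and 37.7 FPKM, against 28.5, 31, 59.1 and 59.96 FPKM in heart, where the libraries overlapped. Other members were lower in muscle: LRP4 than in thymus, ETV5 than in brain and lung, and UTRN than in lung. The fetal gamma subunit CHRNG had 4.85, 2.9, 1.96 and 1.48 FPKM and fell under the level filter.

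Among 17 measured regulators of muscle identity and fusion, 15 were tested and 10 were called highest, against 1.56% of all genes. MYF6, a factor of mature fibres, had 74.3 and 82.2 FPKM in WT2 muscle and 79.8 and 82.1 FPKM in WT3 muscle, against at most 0.601 FPKM elsewhere, a distance of 5.8 log2 units (SE 0.16, joint adjusted p = 2.01e-09). MYOD1, the master regulator of the lineage, had 16.3 and 16.4 FPKM in WT2 muscle and 22.2 and 25.1 FPKM in WT3 muscle, against at most 0.387 FPKM. CDH15, the cadherin of myogenic cells, had 16.1, 18.3, 23.7 and 24.8 FPKM. MEF2C was higher in brain instead, with 51.3, 55.3, 25.5 and 25.6 FPKM in muscle, against 326, 319, 149.8 and 150.1 FPKM in brain (-2.54, SE 0.42, adjusted p = 0.00043). MEF2A was lower in muscle than in brain, heart and lung, MSC lower than in heart and SOX8 lower than in brain. PAX7, which marks the satellite cells that regenerate muscle, had 1.94, 1.73, 1.74 and 1.69 FPKM in muscle and at most 0.0154 FPKM elsewhere, too low for the filter.

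Embryonic and perinatal isoforms were present at modest levels, and 3 of 10 (9 tested) were called highest, against 1.56% of all genes. Against heart, 3 of the 9 tested were higher (background 4.97%) and 4, MYL4, ACTC1, NCAM1 and TNNT2, were lower (5.07%). ACTC1 averaged 174 FPKM in muscle, against 6560 in heart, and TNNT2 2.21, against 2081. TNNT2 was also lower than in thymus, liver, lung and kidney. MYH8, the perinatal myosin chain, had 91.9 and 92.4 FPKM in WT2 muscle and 54.4 and 53.7 FPKM in WT3 muscle, against 14.7, 13.9, 3.98 and 4.08 FPKM in heart. MYH3, the embryonic chain, had 14.9 and 13.6 FPKM in WT2 muscle and 4.11 and 4.22 FPKM in WT3 muscle, against at most 0.222 FPKM elsewhere. Both lay below MYH1 and MYH2 in every muscle library. The growth factor IGF2, with 820.2, 841, 775 and 750.0 FPKM, was not highest in muscle, since liver averaged 1344 FPKM, and DLK1, a secreted regulator of precursor cells, was lower than in kidney, with 259, 252, 140.2 and 153 against 862, 847, 1090.0 and 1134 FPKM (-2.33, SE 0.43, adjusted p = 0.0013).

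Glycogen breakdown and glycolysis had 15 of 22 listed genes called highest in muscle, against 1.56% of all genes. The list's median difference ran from 2.19 against heart to 3.57 against lung, where all genes had medians between -0.48 and 0.01. PYGM, the muscle glycogen phosphorylase, had 1618 and 1586 FPKM in WT2 muscle and 1627 and 1634 FPKM in WT3 muscle, against 76.3, 90.1, 56.6 and 53.1 FPKM in heart (4.56, SE 0.49, adjusted p = 9.63e-05). ALDOA, an aldolase, had 4236, 4127, 3928 and 3896 FPKM, against 608, 677, 404 and 395 FPKM in heart (3.0, SE 0.26, adjusted p = 1.70e-05), and GAPDH had 5290.5, 5138, 4447 and 4536 FPKM in muscle, against 1540.1, 1789, 1756 and 1696 in heart (1.52, SE 0.2, adjusted p = 0.00045). After quantile normalisation the distance of GAPDH to the highest other tissue was 0.48 (joint adjusted p = 0.94). ENO3, the muscle enolase, had 2495, 2433, 3185 and 3217 FPKM, against 409, 433, 416 and 394 FPKM in heart (2.76, SE 0.25, adjusted p = 2.43e-05). The called genes ran from glycogen phosphorylase and its kinase subunits through GPI, PFKM, ALDOA and TPI1 to PGAM2 and ENO3. TPI1 lost the call without WT2 muscle (joint adjusted p = 0.17), WT2 brain (0.19), WT3 brain (0.076) or WT3 heart (0.18), and with no level filter (0.076). PPP1R3C, a glycogen-targeting phosphatase subunit, was an exception, with 44.8 and 47 FPKM in WT2 muscle and 8.62 and 8.61 FPKM in WT3 muscle, against 25.5, 26.1, 36.7 and 36 FPKM in heart.

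Of 11 genes of the creatine and purine nucleotide buffers 3 were called (background 1.56%), CKM, ADSSL1 and the AMPD1 named above. CKM, the muscle creatine kinase, had 12211 and 11842 FPKM in WT2 muscle and 14824 and 14933 FPKM in WT3 muscle, against 2121, 2273, 1509.5 and 1478 FPKM in heart (2.88, SE 0.36, adjusted p = 0.00031) and 12.2 FPKM on average in kidney, the next highest. With a pseudocount of 0.1 CKM no longer passed as higher than heart (adjusted p = 0.07), so that 1 of the 18 pairs counted below rests on the pseudocount. ADSSL1, the adenylosuccinate synthase of muscle, had 450.2, 436, 345 and 341 FPKM, against 51.1, 55, 26.7 and 27.4 in heart (3.33, SE 0.48, adjusted p = 0.0008). AK1, an adenylate kinase, had 1099, 1067, 741 and 746 FPKM, against 197, 225, 237 and 226 in heart (2.02, SE 0.48, adjusted p = 0.019), and did not pass the joint test (adjusted p = 0.09). CKMT2, the mitochondrial creatine kinase, stood at 238, 250.4, 297 and 297 in muscle, against 503, 516, 377 and 351 FPKM in heart.

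Oxidative phosphorylation did not set muscle apart from heart. None of 37 nuclear-encoded subunits was called highest in muscle, and none passed the test against heart in either direction (median -0.19). Of all genes, 1.56% were called highest, 4.97% were higher than heart and 5.07% lower. Against lung all 37 were higher (median 2.04, background 8.67%), against thymus 33 (14.8%), brain 23 (12.9%), liver 22 (14.1%) and kidney 8 (6.8%). COX4I1, a cytochrome oxidase subunit, had 1014, 1017, 723 and 739 FPKM in muscle, against 1719.8, 1847, 1038 and 1018 in heart. Of 9 genes in the list of heart and muscle isoforms of oxidative subunits and related proteins, COX7A1 was called highest in muscle, with 1626, 1616, 1880.5 and 1939 FPKM, against 749, 867, 859 and 886 FPKM in heart (1.07, SE 0.2, adjusted p = 0.0055). Its call was lost after quantile normalisation (joint adjusted p = 0.21) and without WT2 muscle (0.053), WT3 muscle (0.18), WT2 heart (0.15) or WT3 heart (0.093). FABP3, the fatty acid carrier of heart, was lower in muscle, with 214, 205, 351 and 351 against 998, 1241, 820.5 and 797 FPKM (-1.8, SE 0.35, adjusted p = 0.0063).

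Genes tied to protein breakdown and fasting were also high. Of 15 muscle ubiquitin ligases and wasting-related genes 8 were called highest (background 1.56%). Against heart 11 were higher (background 4.97%) and 2, TRIM55 and ASB11, lower (5.07%). ASB2 lost its call with a pseudocount of 0.1 (joint adjusted p = 0.35), no level filter (0.097) and quantile normalisation (0.079). Its distance was 1.14 without WT3 muscle, 1.38 without WT2 heart and 1.8 without WT3 heart. TRIM63 (MuRF1), a ligase that targets sarcomere proteins, had 369 and 380.2 FPKM in WT2 muscle and 547 and 547 FPKM in WT3 muscle, against 76.5, 77.5, 82.3 and 82.9 FPKM in heart (2.49, SE 0.35, adjusted p = 0.0007), a call lost with a pseudocount of 0.1 (joint adjusted p = 0.25). FBXO32 (atrogin-1), the other ligase known from muscle wasting, had 109.8 and 110.2 FPKM in WT2 muscle and 137 and 133 FPKM in WT3 muscle, and its highest other library held 9.5 FPKM. PDK4, which shuts glucose carbon out of the mitochondrion in fasting, had 616 and 652 FPKM in WT2 muscle and 737 and 723 FPKM in WT3 muscle, against 151, 139, 62.2 and 58 FPKM in heart (2.85, SE 0.38, adjusted p = 0.00045). Of 16 dystrophin complex and membrane repair genes, SGCA and SSPN were called (background 1.56%). SGCA, alpha-sarcoglycan, had 177, 179, 183 and 188 FPKM, against 38.6, 43.5, 23.3 and 26.7 FPKM in heart (2.47, SE 0.25, adjusted p = 6.42e-05), while DMD, dystrophin itself, stood at 24.8, 26.5, 33.3 and 32.9 FPKM in muscle, against 38, 34.4, 19.5 and 19.1 in heart, where the libraries overlapped.

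Some called genes were in no list, among them CA3, PPP1R27 and FBP2 of the 25 above. The 10 unlisted genes with the largest distances outside those 25, at 4.11 to 5.86 log2 units, were named after their values were seen. They were TMEM52, ANKRD23, IP6K3, TBX15, HSPB6, STRIT1, PITX3, FHL3, CHAC1 and SYNPO2. HSPB6, a small heat shock protein of muscle, had 826 and 805 FPKM in WT2 muscle and 509.7 and 502 FPKM in WT3 muscle, against 19.8, 25.6, 23.4 and 21.9 FPKM in heart, a distance of 4.77 log2 units (SE 0.38, joint adjusted p = 1.82e-05). STRIT1 encodes DWORF, a micropeptide that activates the calcium pump, and had 205 and 217 FPKM in WT2 muscle and 157 and 151 FPKM in WT3 muscle, against 9.99, 10.9, 4.9 and 4.06 FPKM in heart. TBX15, a developmental transcription factor, had 90.4 and 91.9 FPKM in WT2 muscle and 41.4 and 42.7 FPKM in WT3 muscle, against at most 1.47 FPKM elsewhere. CHAC1, a glutathione-degrading enzyme of the integrated stress response, had 191 and 184 FPKM in WT2 muscle and 295 and 287 FPKM in WT3 muscle, against at most 15.9 FPKM elsewhere, a distance of 4.14 log2 units (SE 0.53, joint adjusted p = 0.00095).

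**Figure D2:**
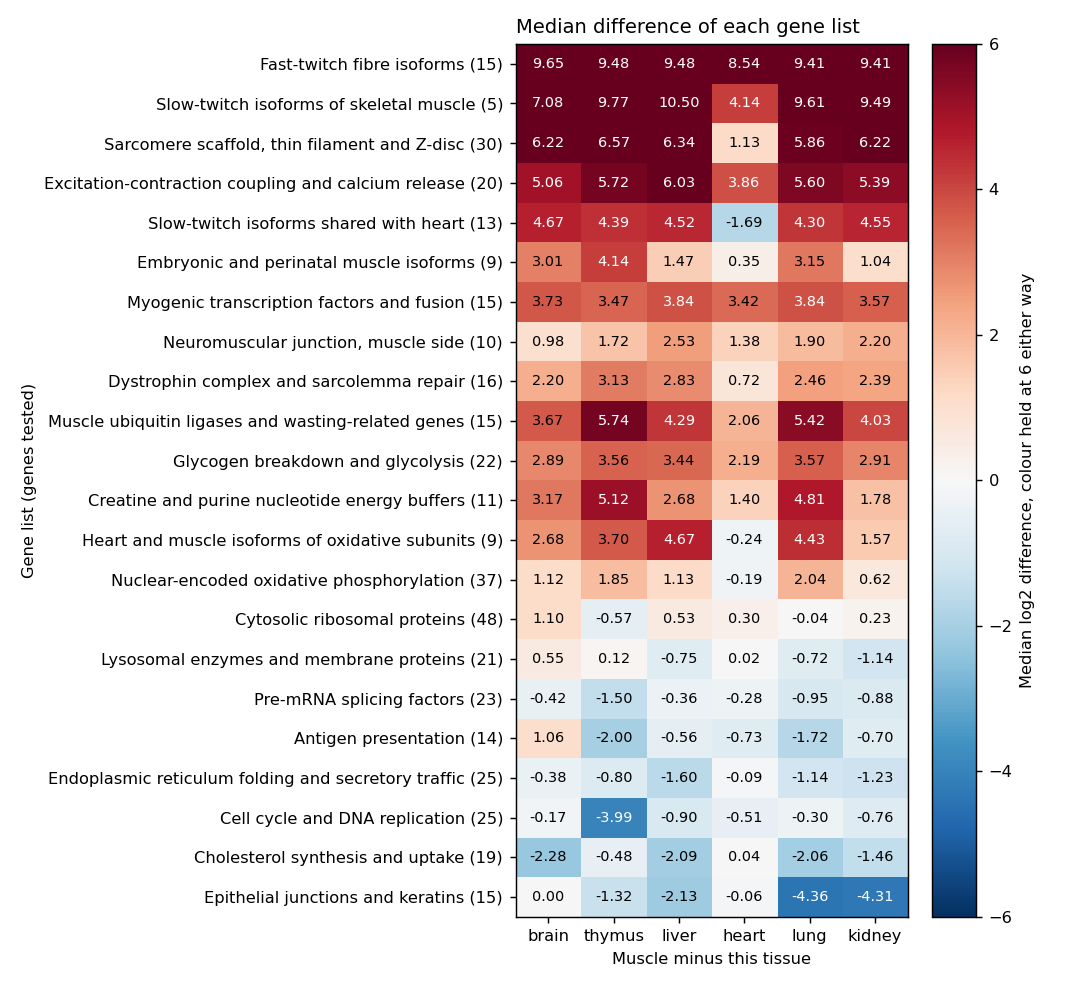
Median log2 difference, muscle minus each other tissue, of 22 gene lists (rows, with the number of genes tested) in the 6 comparisons (columns). Fast isoforms are far above 0 in every column, the slow isoforms shared with heart are above 0 except against heart (-1.69), and epithelial genes are furthest below 0 against lung and kidney.

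Heart was the tissue nearest to muscle. Its levels correlated with muscle at 0.928 across genes, against 0.742 for brain to 0.844 for lung. Muscle was higher than heart at 818 genes (4.97%) and lower at 835 (5.07%). The 4 furthest above were MYLPF, TNNC2, TNNI2 and ATP2A1. The 4 furthest below were TNNI3, MYBPC3, TNNT2 and MYL7, cardiac troponins, cardiac myosin-binding protein C and the atrial light chain. MYL7 averaged 1.24 FPKM in muscle, against 716 in heart (-8.33, SE 0.45, adjusted p = 3.30e-07).

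In 20 gene pairs, 1 member is typical of skeletal muscle and its partner of heart or other tissues. The muscle-type gene was higher in muscle than in heart in 18 pairs (background 4.97%), and in 10 of these the partner was lower (5.07%). The pairs were chosen as families known to be divided between tissues. With the animal as a replicate block the partner MYL3 was also lower (-1.78, adjusted p = 0.044), while ENO1 (-0.96, adjusted p = 0.042) stayed under the minimum difference of 1. Troponin I divided cleanly: TNNI2 had 4759, 4425, 3619 and 3765 FPKM in muscle, against 0.963, 2.83, 1.28 and 3.79 in heart, while TNNI3 had 1.01, 0.688, 0.123 and 0.598 FPKM in muscle, against 5039, 5701, 6293 and 6208 in heart (-11.85, SE 0.76, adjusted p = 1.31e-06). Myosin-binding protein C also divided, with MYBPC2 at 462, 443, 322 and 323 FPKM in muscle, against 0, 0, 0.0816 and 0.0399 in heart, and MYBPC3 at 0.0988, 0.0537, 0 and 0.0445 in muscle, against 912, 925, 891 and 884 (-9.75, SE 0.26, adjusted p = 1.07e-09). No library of one tissue reached the other in either pair, as the choice of these genes also required.

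The channels of excitation divided in the same way at lower levels. The release channels were RYR1, at 122, 119, 189 and 185 FPKM in muscle, against 0.531, 0.585, 0.243 and 0.347 in heart, and RYR2, at 0.175, 0.192, 0.0875 and 0.0736 in muscle, against 62.7, 57.9, 29.9 and 31 in heart (-5.28, SE 0.31, adjusted p = 7.11e-07). The calcium channel CACNA1S had 43.2, 42.8, 54.2 and 53.9 FPKM in muscle, against 0.0273, 0, 0 and 0 in heart, and CACNA1C had 0.699, 0.73, 0.8 and 0.708 in muscle, against 13.3, 15.1, 10.2 and 10.6 (-2.93, SE 0.24, adjusted p = 1.25e-05). The skeletal sodium channel SCN4A averaged 29.5 FPKM in muscle, against 0.335 in heart. In both calcium channel pairs muscle used the skeletal gene and held under 1 FPKM of the cardiac one.

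Other cardiac partners were shared. MYL2, the slow and ventricular regulatory light chain, had 5654, 6093, 6125 and 6112 FPKM in muscle, against 9869, 10865, 6135 and 5989 in heart (difference -0.4, SE 0.93, adjusted p = 0.89). TNNC1, the slow and cardiac troponin C, had 3397, 3407, 4515 and 4301 in muscle, against 4432, 4528, 2482 and 2447 in heart (0.22, SE 0.48, adjusted p = 0.88), and ATP2A2, the slow and cardiac calcium pump, had 391, 406, 531 and 529.7, against 457, 473, 251 and 247 (0.43, SE 0.3, adjusted p = 0.42). MB, myoglobin, had 6171, 6127, 5488 and 5578 FPKM in muscle, against 5166, 6385, 3806 and 3756 in heart (0.32, SE 0.67, adjusted p = 0.87). The libraries of the 2 tissues overlapped for all 4 genes, and none passed the test. MYH7, the slow and ventricular myosin chain, was not analysed here. Of the 13 listed slow isoforms shared with heart, 2 were called highest in muscle (background 1.56%), TPM3 and ANKRD2, and 6 were lower than in heart (5.07%).

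TPM3, the slow tropomyosin, ran against its list. It had 782, 755, 807 and 772 FPKM in muscle, against 20.2, 19.8, 23 and 21 FPKM in heart (5.15, SE 0.28, adjusted p = 3.30e-07). With heart left out, 455 genes were highest in muscle, 198 more than with it. Of these 198, 137 passed in neither direction against heart, 20 were lower than in heart and 41 were higher than heart in the single comparison only. The 3 largest by distance to the other 5 tissues were MB, MYL2 and COX6A2, a cytochrome oxidase subunit of heart and muscle with 576, 553, 893 and 916 FPKM in muscle, against 481, 660.1, 880.4 and 861 in heart.

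Enzyme pairs showed a smaller division. PFKM, the muscle phosphofructokinase, had 392, 402, 409 and 409 FPKM in muscle, against 159, 163, 73.7 and 71.6 in heart (1.89, SE 0.39, adjusted p = 0.0095), a call lost without WT3 muscle (adjusted p = 0.053) or WT3 heart (0.08). Its liver-type partner PFKL stood at 32.2, 30.7, 22 and 19.7 FPKM in muscle, against 26.2, 25.9, 25.9 and 25.2 in heart. CKB, the brain creatine kinase, was lower in muscle, with 9.36, 7.15, 5.16 and 5.12 FPKM, against 56.5, 54.9, 142 and 149 in heart (-3.6, SE 0.44, adjusted p = 0.00027) and 462, 453, 663 and 676 in brain (-6.21, SE 0.44, adjusted p = 4.38e-07). CPT1B and COX6A2 were the only muscle-type genes of the 20 that were not higher in muscle than in heart. CPT1B, which carries fatty acids into the mitochondrion, had 33.6 and 31.7 FPKM in WT2 muscle and 84.2 and 84.9 FPKM in WT3 muscle, against 121, 124, 111 and 105 FPKM in heart (-1.11, SE 0.38, adjusted p = 0.087). With the animal as a replicate block the adjusted p was 0.042.

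**Figure D3:**
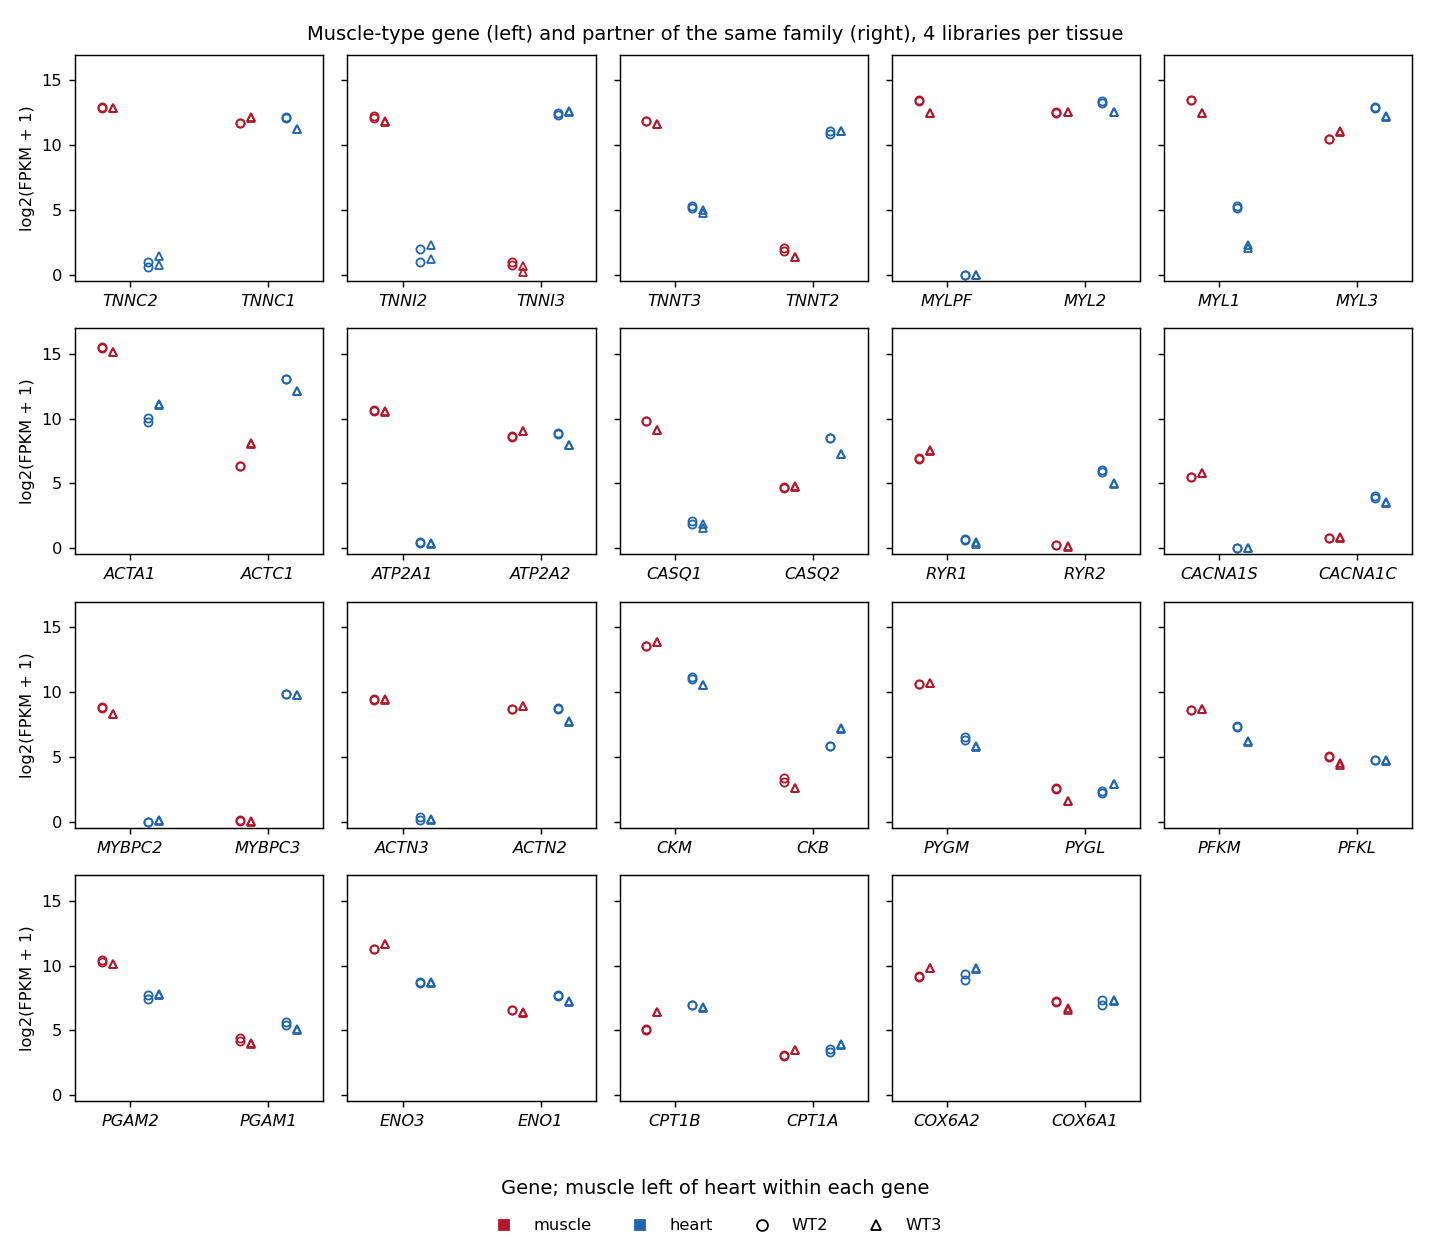
Level of both genes of 19 of the 20 pairs, as log2(FPKM + 1), in the 4 muscle (red) and 4 heart (blue) libraries, with circles for WT2 and triangles for WT3. Muscle is far above heart for nearly every left-hand gene, while right-hand genes such as TNNC1, MYL2 and ATP2A2 sit at similar heights in both tissues.

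The other 5 tissues differed from muscle far more widely. Muscle was higher than brain at 2125 genes (12.9%) and lower at 4269 (25.9%), higher than thymus at 2431 (14.8%) and lower at 4173 (25.3%), and higher than liver at 2318 (14.1%) and lower at 2219 (13.5%). It was higher than lung at 1428 (8.67%) and lower at 3449 (21%), and higher than kidney at 1120 (6.8%) and lower at 4208 (25.6%). The balance of higher and lower calls moved with the scaling. As deposited, the median difference of all genes was -0.24 against brain, -0.25 against thymus, 0.01 against liver, -0.09 against heart, -0.37 against lung and -0.48 against kidney. Higher calls were 33.2% of all calls against brain, 36.8% against thymus, 29.3% against lung, 21% against kidney and 49.5% against heart. After quantile normalisation they were 50.8%, 48.9%, 47.8%, 45.4% and 53.3% in that order, and with library medians set equal 57.1%, 58.5%, 60.5%, 59.4% and 61%. The median difference of all genes then lay between -0.05 and 0.09 after quantile normalisation and between 0.06 and 0.33 with library medians set equal.

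Against each of these tissues the genes furthest below were that tissue's own. Against brain they were STMN2, RTN1, TUBB3 and SYP, genes of neurons and their synapses, with STMN2 at 0.987, 1.64, 0.307 and 0.743 FPKM in muscle, against 1092, 1062, 1017 and 984 in brain (-9.13, SE 0.24, adjusted p = 2.34e-10). Against thymus they were CD3D, PLA2G2F, CD8A and RAG1, where CD3D, a T cell receptor subunit, had 0, 0.232, 0.314 and 0.199 FPKM in muscle, against 1169.6, 1106, 1643 and 1650.5 in thymus (-10.18, SE 0.34, adjusted p = 2.72e-09). Against liver they were the plasma proteins ALB, APOA2, TTR and FGB, and APOA2 had 0, 0, 0.305 and 0.296 FPKM in muscle, against 9987, 10334, 18186 and 17991 in liver (-13.54, SE 1.02, adjusted p = 1.30e-06). All libraries of these pairs lay apart, as the choice of the named genes required.

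Against lung the lowest were the surfactant genes SFTPC, SFTPB and SFTPD with WFDC2, an airway secretory protein. SFTPB had 0, 0, 0.0713 and 0.035 FPKM in muscle, against 4549, 4702, 2819 and 2757 in lung (-11.77, SE 0.56, adjusted p = 5.80e-08). Against kidney they included UMOD, FXYD2 and PDZK1IP1, genes of the nephron tubule. FXYD2, which regulates the sodium pump, had 0, 0.523, 0 and 0.179 FPKM in muscle, against 3478, 3233, 2523 and 2624 in kidney (-11.31, SE 0.58, adjusted p = 5.45e-08). In the opposite direction, the largest differences were ACTA1, CKM, MYL1 and MYLPF against brain, thymus, liver and lung, and ACTA1, MYL1, MYLPF and TNNC2 against kidney.

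No gene was called lowest in muscle under the rule that gave 257 highest (0%). The smallest adjusted joint p was 0.128. At an unadjusted joint p under 0.05 there were 188 genes, of which 27 were at least 1 log2 unit under the lowest other tissue. All 4 muscle libraries lay below all 24 others at 532 genes (3.23%), 182 of them with a lowest other tissue of 5 FPKM or more. In single comparisons 345 genes were higher in muscle than all 6 tissues and 18 were lower than all 6. The genes that follow are among those 18, were named after their values were seen and did not pass the joint test as fitted. The low genes were also chosen to have all 4 muscle libraries below all 24 others.

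BEX1, an adaptor protein of neurons and other cells, had the smallest joint p of the low genes, and it passed with a pseudocount of 0.1 (difference -2.44, joint adjusted p = 0.041). It stood at 3.69 and 4.8 FPKM in WT2 muscle and 4.11 and 2.39 FPKM in WT3 muscle, against 15.9, 67.6 and 272 FPKM (lowest, median and highest) in the other libraries. SPINT2, an inhibitor of epithelial serine proteases, had 8.38 and 6.8 FPKM in WT2 muscle and 3.18 and 2.9 FPKM in WT3 muscle, against 15.1, 61.9 and 263 FPKM. In both the muscle libraries were the lowest of the 28, as this choice required.

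Some low genes were the ubiquitous partners of genes that were high in muscle. PGAM1, the general phosphoglycerate mutase, had 20.3 and 17.5 FPKM in WT2 muscle and 15.4 and 14.4 FPKM in WT3 muscle, against 31, 64.7 and 153 FPKM elsewhere, while PGAM2, its muscle form, had 1365 and 1274 FPKM in WT2 muscle and 1098 and 1143 FPKM in WT3 muscle, against 0.632, 3.45 and 219 FPKM. SLC25A5, an ATP/ADP carrier of the mitochondrion, had 28.6 and 32 FPKM in WT2 muscle and 37.3 and 38.8 FPKM in WT3 muscle, against 86.8, 134 and 458 FPKM, while its partner SLC25A4 had 1265 and 1248 FPKM in WT2 muscle and 1882 and 1871 FPKM in WT3 muscle, against 2056, 2282, 1434 and 1404 FPKM in heart. The first gene of each pair was chosen as lowest in muscle among all 28 libraries. For the second gene, muscle was higher than brain, thymus, liver, lung and kidney. PGAM1 was no longer lower than heart without WT3 muscle (adjusted p = 0.14) or WT2 heart (0.14).

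**Figure D4:**
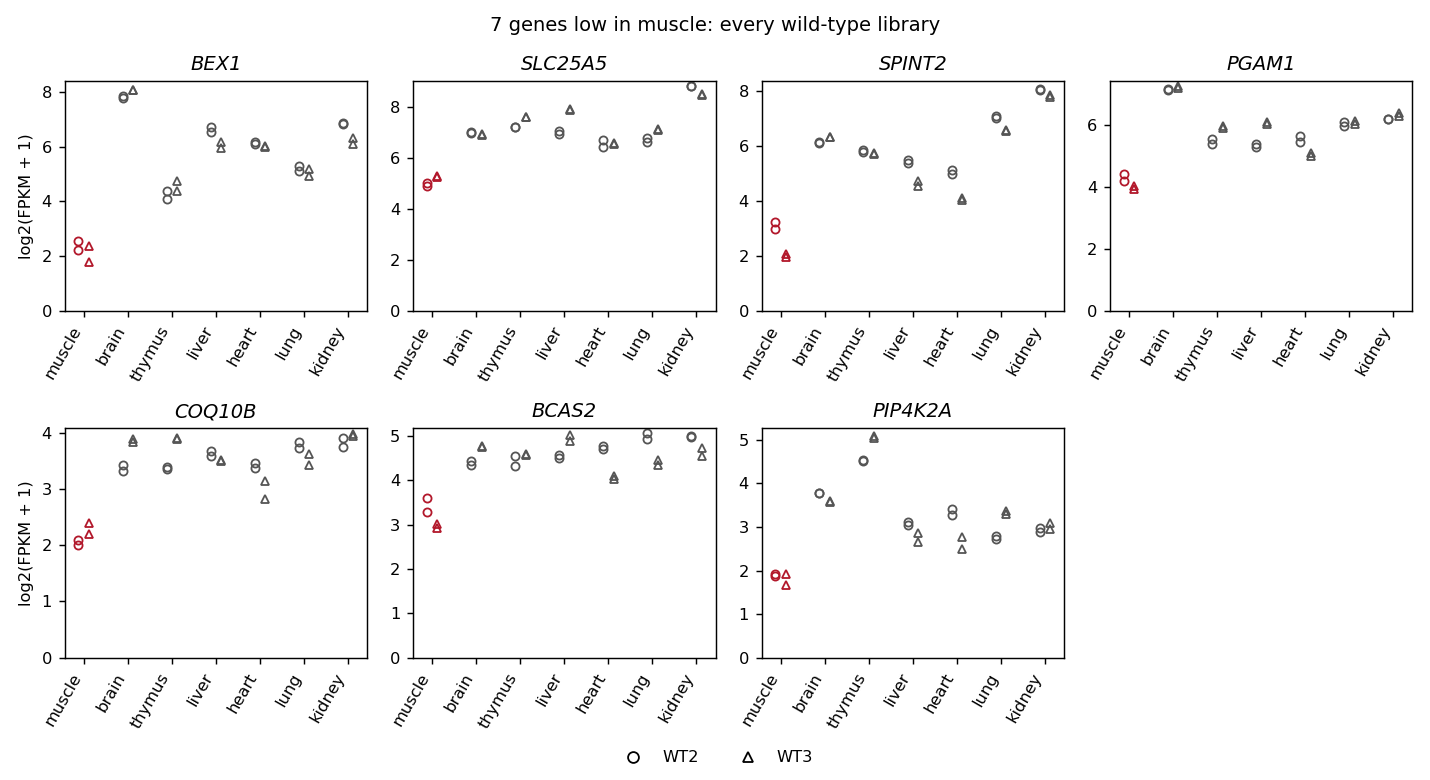
Level, as log2(FPKM + 1), of 7 genes that were lower in muscle (red, at the left) than in each of 6 other tissues (grey) in single comparisons, with 1 point per wild-type library, circles for WT2 and triangles for WT3. The 4 muscle points are the lowest in each panel, as the choice of genes required, and no gene passed the joint test as fitted.

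Several functions were low in muscle against particular tissues. All 25 cell cycle and DNA replication genes were lower than in thymus (median -3.99, background 25.3%) and 10 of the 25 were lower than in liver (background 13.5%). Against kidney 8 were lower, near the 25.6% of all genes, and the median moved from -0.76 to -0.011 with medians set equal. MCM7, a subunit of the replication helicase, had 8.33, 8.32, 17 and 15.3 FPKM in muscle, against 54.6, 53.1, 58.5 and 56.1 in thymus (-2.16, SE 0.38, adjusted p = 0.00066). Of 23 splicing factors 20 were lower than in thymus (median -1.5, background 25.3%) and 10 lower than in lung (21%). With medians set equal the splicing median against lung was -0.41, against -0.95 as deposited. The cell cycle median changed sign with the scaling against brain, where it was -0.17 as deposited and 0.17 after quantile normalisation, and against lung, where it was -0.3 as deposited and 0.24 with medians set equal. The splicing median changed sign against brain, -0.42 as deposited and 0.14 with medians set equal.

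Secretory and cholesterol synthesis genes were low against some tissues. Of 25 genes of protein folding and transport in the endoplasmic reticulum, 19 were lower in muscle than in liver (background 13.5%). Lower than in kidney were 15 (25.6%), than in lung 13 (21%) and than in heart none (5.07%). The median against liver was -1.6 as deposited and -1.56 with medians set equal, but it shrank to -0.48 against kidney (-1.23 as deposited) and -0.6 against lung (-1.14 as deposited). CALR, a calcium-binding chaperone, had 68.4, 66.1, 61.5 and 59.7 FPKM in muscle, against 258, 262, 458 and 456 in liver (-2.41, SE 0.37, adjusted p = 0.00039). Of 19 genes of cholesterol synthesis and uptake, 16 were lower than in brain (background 25.9%), 16 than in lung (21%), 15 than in liver (13.5%) and 12 than in kidney (25.6%). None passed against heart, where 4.97% of all genes were higher and 5.07% lower. The 4 lower than in thymus were fewer than the background of 25.3% gives. The median against kidney was -1.46 as deposited and -0.71 with medians set equal. HMGCS1, an early enzyme of the pathway, had 10.4, 9.95, 11.4 and 10.6 FPKM in muscle, against 202, 204, 111 and 110.5 in brain (-3.71, SE 0.54, adjusted p = 0.00016) and 13.4, 13.3, 3.86 and 3 in heart.

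Epithelial junction genes and keratins, 15 in the list, were all lower than in lung (median -4.36, background 21%) and kidney (median -4.31, background 25.6%). None passed against brain, where 12.9% of all genes were higher and 25.9% lower. KRT18, a keratin of simple epithelia, had 0.526, 0.288, 0 and 0.0629 FPKM in muscle, against 117, 118, 102 and 113 in lung (-6.56, SE 0.3, adjusted p = 4.37e-08). Antigen presentation genes were lower than in thymus at 12 of 14 (background 25.3%) and than in lung at 9 (21%), and B2M, the light chain of class I molecules, had 2763, 2652, 2142 and 2126 FPKM in muscle, against 9576, 9759.8, 13297 and 11725 in lung (-2.19, SE 0.32, adjusted p = 0.00033). Lysosomal genes were lower than in kidney at 11 of 21 (background 25.6%), with a median of -1.14 as deposited and -0.39 with medians set equal. Of 48 ribosomal protein genes 26 were higher than in brain (12.9%) and none was lower (25.9%). Their median against brain was 1.1 as deposited and 0.2 after quantile normalisation. The 9 lower than in thymus were fewer than the background of 25.3% gives. Against brain, thymus and liver the sign of the median held under all 3 scalings. The thymus median was -0.57 as deposited and -0.12 with medians set equal. Against lung their median was -0.04 as deposited, -0.64 after quantile normalisation and 0.5 with medians set equal, and it changed sign likewise against heart and kidney.

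Markers of other cell types were also measured in muscle. The 10 fibroblast markers summed to 6782 and 3752 FPKM in WT2 and WT3 muscle, against 1722 in heart and 46.3 in brain, and COL1A1, the main chain of type I collagen, had 3095 and 3019 FPKM in WT2 muscle and 1504 and 1525 FPKM in WT3 muscle. Schwann cell markers summed to 336 and 196 FPKM, against 96.2 in heart and 882 in brain. Endothelial markers summed to 288 and 322 FPKM (987 in lung) and macrophage markers to 80.5 and 44.3 (909 in liver). Lymphocyte markers summed to 4.11 and 4.6 FPKM (3186 in thymus) and red cell markers to 1079 and 1112 (4515 in heart). Kidney tubule markers summed to under 1 FPKM in both animals.

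The 2 animals' muscles differed most in tendon and cartilage genes. The 9 measured markers summed to 489.9 FPKM in WT2 muscle, against 6.82 FPKM in WT3 muscle. FMOD, a collagen-binding proteoglycan of tendon, had 205 and 198 FPKM in WT2 muscle and 1.14 and 0.88 FPKM in WT3 muscle, TNMD, tenomodulin, had 89.8 and 95.3 FPKM in WT2 muscle and 0.745 and 0.33 FPKM in WT3 muscle, and COMP, a matrix protein of tendon and cartilage, was listed at 0 in WT3 muscle and had 57.9 and 55.6 FPKM in WT2 muscle. None of these was called highest. The fibroblast sum was also higher in WT2 muscle. What part the tendon genes have in the other differences between the animals was not tested. Over all genes, 1008 differed by 1 log2 unit or more between the 2 muscles and 124 by 2 or more. Of the 257 highest genes 40 differed by 1 or more, and their median size of difference was 0.45, against 0.26 for all genes.

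The 257 genes were then read in the KO animals. SIRT6 itself had 5.35, 4.62, 9 and 8.62 FPKM in KO2 and KO3 muscle, against 8.73, 7.52, 8.42 and 8.29 FPKM in WT2 and WT3 muscle, so its RNA level overlapped and does not tell the genotypes apart. In KO2 and KO3 the same rule called 151 of 16638 genes highest in muscle (0.908%) and none lowest. Of the 257 genes, 239 were tested there and 116 were called, 45.1% of the WT list and 76.8% of the KO list. Since the 257 were chosen by WT values, fewer of them would be called in other animals in any case. All 6 differences were positive at 224. MYLPF had 11998, 12649, 8535 and 7844 FPKM in KO2 and KO3 muscle, against 11259.6, 11081, 5585 and 5784 in WT2 and WT3 muscle, and TNNC2 had 8311, 9273, 7356 and 7244, against 7936, 7697, 7565 and 7572. Both genes overlapped between genotypes.

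The lists divided. Of the genes called highest in WT muscle, 13 of 14 fast-fibre isoforms, 12 of 15 coupling genes and 10 of 12 sarcomere genes were called in KO animals too, but none of 15 glycogen and glycolysis genes and 1 of 8 ubiquitin ligase and wasting-related genes. PYGM had 487, 504, 766 and 754 FPKM in KO muscle, against 1618, 1586, 1627 and 1634 in WT muscle, and TRIM63 had 8.67, 10.2, 74.3 and 72.2, against 369, 380.2, 547 and 547. UCP3 had 0.286, 0.322, 0.463 and 0.6, against 73.9, 76.1, 154 and 151. MYH1 had 34.6, 35.6, 38 and 36.6, against 1228, 1220.3, 561 and 580.0, and stayed highest in muscle in both genotypes, while the embryonic MYH3 had 469, 467, 307 and 306 in KO muscle, against 14.9, 13.6, 4.11 and 4.22 in WT muscle. In the genes just named the 4 KO muscle libraries lay on one side of the 4 WT ones. How many of all genes did so was not counted, and no gene passed the test of the genotypes given next.

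The difference between genotypes was tested itself, as each animal's muscle level minus the mean of its other 6 tissues. No gene of 16690 passed in limma (0%), with 2105 at an unadjusted p under 0.05 and a smallest adjusted p of 0.161. For MYH1 the estimate was -4.84 (SE 0.64, adjusted p = 0.20), for TRIM63 -3.76 (SE 0.88, adjusted p = 0.24), for UCP3 -6.34 (SE 0.59, adjusted p = 0.16) and for MYH3 5.29 (SE 0.74, adjusted p = 0.20). The median over the 257 genes was -0.78, and over all genes 0.13. The 257 were chosen for large WT differences, which lowers their median whatever the genotype does, so these medians do not compare the genotypes. Without WT2, 38 genes passed, and without WT3, 5, with the lone WT animal taken to vary like the KO animals. A list called in one genotype and not in the other is therefore not shown to differ between them.

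**Figure D5:**
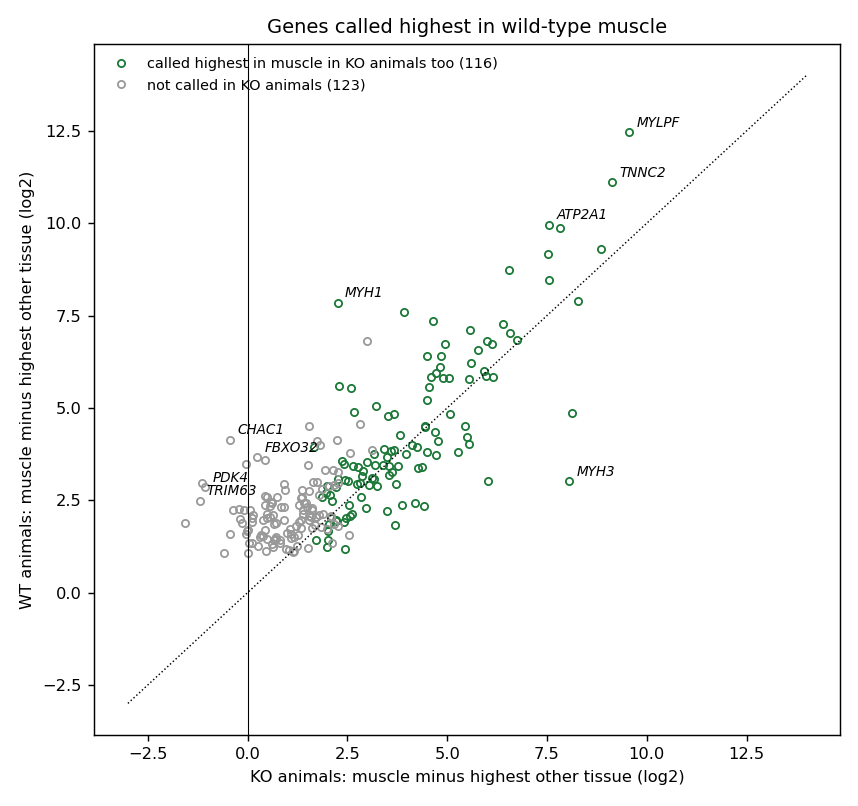
Distance between muscle and the highest other tissue, in log2 units, in KO animals (horizontal axis) and WT animals (vertical axis) for the 239 genes called highest in WT muscle and tested in KO animals, green where also called there (116) and grey where not (123). Points above the dotted line of equality had the larger distance in WT animals, and 224 lie right of 0. The genes were chosen by their WT distance, which favours points above the line.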

How the data were processed

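RNA was sequenced from whole tissue of newborn monkeys. The authors' values are FPKM per gene in the deposited newborn table, made with CASAVA, HISAT 0.1.6 and Cufflinks 2.0.2, per the submitters' processing notes. No source used here names a genome build. Depth is unknown, since the low values show no steps of whole reads, so no count model was used and no counting interval is given. The table holds 28141 genes, of which 11294 carry a LOC identifier. A RefSeq gene table gave 721 of these a symbol, and 10573 kept the identifier. The fetal table was not used here, and some genes are not reported here.

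Each animal's 2 repeat libraries were averaged as log2(FPKM + 1). Genes with a mean of 0.5 FPKM or more over the 28 WT libraries were tested in limma 3.58.1 (R 4.3.3) with 1 fit of the 7 tissues and a trend in the variance. A call needed a Benjamini-Hochberg adjusted p under 0.05 and a difference of 1 or more. The fit was tested on simulated data. Differences are given after adding 1 to the FPKM, which shrinks those of low genes, and an exact 0 can be a failed estimate, so such genes are said to be listed at 0. The animals are 2 per genotype. In the fit of 7 tissues, p-values set a difference against the spread between animals within tissues, with information shared over tissues and genes. That fit takes an animal's tissues as independent, so small p-values do not show how far results hold in other animals.

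Named genes were the 25 called with the largest distance, 4 per tissue and direction, the 6 highest members of each list and 20 gene pairs. The 25 and the 4 per tissue and direction also had to show no overlap of libraries, so their separation is part of the choice. Other genes in the text, among them exceptions to a list's count, the low genes and the regulators at low level, were chosen after their values were seen. The members, lists and pairs were chosen with earlier results of these data known, and counts over them are descriptions. The 7 tissues of a number come from the same animal: deviations of WT2 from the tissue means correlated between tissues at 0.167 to 0.462 (median 0.275), and the animal as a replicate block is an alternative. Other alternatives were the pseudocount, the level filter, quantile normalisation, library medians set equal (chosen after seeing the data), single repeats, the pair fit, the variance trend, the minimum difference and each animal left out.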

Additional observations from a re-analysis of the deposited data

How the results depend on the processing

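The number of genes highest in muscle was 257, and it fell to 160 with a mean of 5 FPKM or more (155 shared) and to 39 with each pair of tissues fitted by itself. It rose to 455 with heart left out and was 285 with the animal as a replicate block, which kept all 257. Leaving out 1 animal of 1 tissue gave 220 to 258 genes, and 0 to 0 lowest, and a pseudocount of 0.1 gave 1 lowest gene, BEX1. With a mean of 5 FPKM or more, lower calls fell to 2372 against brain, 2401 against thymus, 548 against heart, 2255 against lung and 2585 against kidney, since fewer genes were tested. The pair fit of heart gave 273 higher and 147 lower. Quantile normalisation gave 2057 lower than lung, 1762 higher than kidney and 2121 lower than kidney. With library medians set equal, there were 3766 higher and 2833 lower than brain, 2536 lower than thymus, 2444 higher and 1598 lower than lung, and 2545 higher and 1743 lower than kidney. Without single animals, higher calls ranged over 1739 to 2146 for brain, 2050 to 2454 for thymus, 2040 to 2341 for liver, 570 to 830 for heart, 1205 to 1458 for lung and 984 to 1139 for kidney. Lower calls ranged over 3908 to 4291, 3647 to 4226, 1974 to 2230, 588 to 862, 3015 to 3640 and 3622 to 4241 in that order. In KO animals 133 to 164 genes were highest, and 106 to 117 of the WT genes were called there too. The KO against WT test gave 0 to 38 genes without single animals and 4 with the animal number as a replicate block, where KO2 and WT2 share only a number. Of 155 named gene results 105 kept their direction and side of the threshold under every alternative run, and 42 lost the call in the pair fit. Differences from heart that changed sign were those of genes that passed no test: COX6A2 gave -0.23 after quantile normalisation, -0.083 in repeat 2 alone, -0.28 without WT2 heart and -0.31 to 0.37 without WT3 or WT2 muscle. TNNC1 gave -0.22 after quantile normalisation and -0.21 to 0.65 without WT3 or WT2 heart, ATP2A2 gave -0.017 to 0.88 without WT3 or WT2 heart, and PFKL gave 0.029 in repeat 1 alone, -0.30 to 0.27 without WT2 or WT3 muscle, 0.0023 without WT2 heart and 0.13 with medians set equal. With the replicate block MYL3 passed as lower than heart, at -1.78, and ENO1 passed the p threshold at -0.96, under the minimum difference. The causes were not tested. Depth is unknown, and 2 animals per tissue limit the precision.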

Other observations

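Genes outside the tendon list also differed between the 2 WT muscles, and the pair given here was chosen after the values were seen. IFI27, an interferon-induced gene, had 17.5 and 14.1 FPKM in WT2 muscle and 415 and 416 FPKM in WT3 muscle. ADIPOQ, the fat cell hormone adiponectin, had 33.4 and 37.1 FPKM in WT2 muscle and 4.64 and 7.59 FPKM in WT3 muscle, while the summed adipocyte markers stood at 472 and 490.4 FPKM. Of the 257 genes highest in muscle, 132 were higher in WT2 than in WT3 muscle.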
